A study of Bos taurus with 8 samples.

Results

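The genes described here are the secreted and membrane-bound proteases that cut the extracellular matrix and cell-surface proteins, with the inhibitors that hold them in check, as measured in cultured bovine granulosa cells. They were the probe sets whose single gene symbol in the platform annotation was MMP, ADAM, ADAMTS or TIMP followed by a number, or RECK. ADAMTSL genes were not taken. This gave 63 probe sets for 61 of 18010 named genes, namely 19 MMPs, 18 ADAMs, 19 ADAMTSs, 4 TIMPs and RECK. MMP1 and TIMP2 had a second probe set, and the one with the higher mean over 8 arrays stood for the gene. The cells, labelled as primary granulosa cells of Bos taurus, had been kept without serum in alpha-MEM with FSH, IGF-1 and androstenedione in both groups. From day 2, with a further change on day 4, the medium held either bovine serum albumin (BSA, 4 arrays) or non-esterified fatty acids as a mix (NEFA, 4 arrays). RNA was taken on day 6. The sources used here name neither the fatty acids nor their dose, and do not say whether the NEFA medium also held BSA. Nothing in the labels tells whether replicates were separate animals, pools or dishes, so the p-values rest on a spread between samples that may be technical.

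Matrix metalloproteinases (MMPs) are zinc-dependent enzymes that cut collagens, gelatins and other matrix proteins, either in solution or, for the membrane types, at the cell surface. ADAMs are membrane-anchored relatives, some of which release growth factors and receptors from the cell, and ADAMTSs are secreted relatives that cut proteoglycans such as versican and aggrecan or trim procollagens. TIMPs block these enzymes to different degrees, and RECK is an inhibitor anchored in the membrane. In the ovary such enzymes remodel the follicle wall and the matrix around the oocyte as the follicle grows and ovulates.

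Levels are log2 expression values, and changes are NEFA minus BSA on the log2 scale with the standard error (SE) of limma. A gene was called where its Benjamini-Hochberg adjusted p, taken across the whole table of 24415 probe sets, was under 0.05. Levels ran from 0.64 to 13.49 over all probe sets. Because the signal of a probe set also depends on its probes, an order of levels between genes is an order of signals and not of transcript amounts. The correlation between arrays across probe sets was 0.9935 to 0.9948 within groups and 0.9914 to 0.9935 between them, and no array stood apart by this measure.

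With NEFA, 3 matrix proteases rose and 1 fell. ADAMTS9 rose 1.79-fold, its close relative ADAMTS20 rose 1.57-fold and the gelatinase MMP2 rose 1.43-fold, while ADAMTS5 was 1.58-fold lower. The other 57 genes did not pass, among them all 5 inhibitors and all 18 ADAMs. The 4 called genes were 6.56% of the 61, where 2.35% of all 18010 genes were called, 0.999% as higher and 1.35% as lower. By family, 3 of 19 ADAMTSs and 1 of 19 MMPs were called. The same 4 were the genes that changed by at least 0.5 in either direction. At an unadjusted p under 0.05, 11 of the 61 genes (18.0%) passed, close to the 16.8% of all genes. In bulk RNA, fewer cells of a type and less RNA per cell cannot be told apart.

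**Figure D1:**
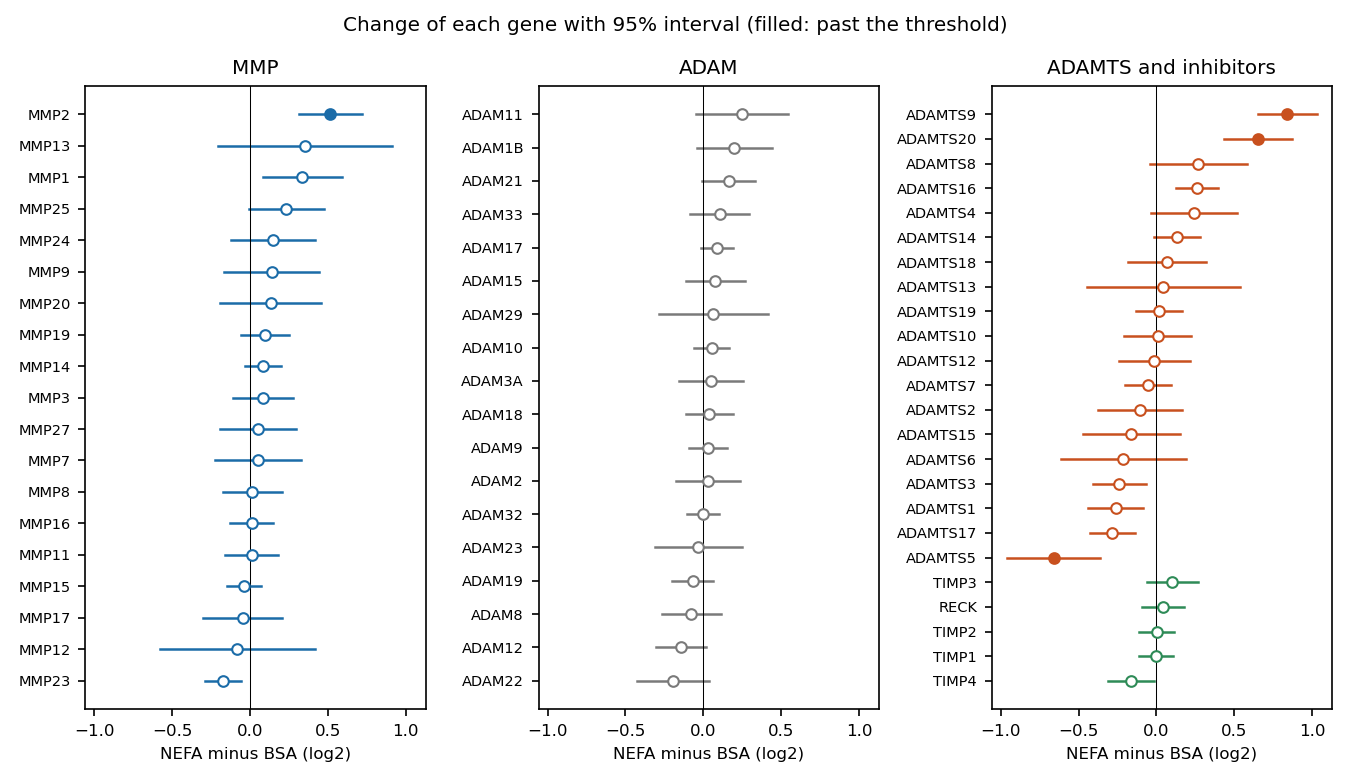
Change of each of the 61 genes (NEFA minus BSA, log2; points) with the 95% interval of limma (lines), by family; filled points are past an adjusted p of 0.05. ADAMTS9, ADAMTS20 and MMP2 lie on the right, from 0.52 to 0.84, and ADAMTS5 at -0.66 on the left.

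ADAMTS9 and ADAMTS20, which share a carboxy-terminal domain named after the worm protein GON-1, cut versican and are needed in mice for the clearance of versican-rich matrix in development. ADAMTS9 (probe set 12796519) read 4.46, 4.39, 4.39 and 4.54 on BSA arrays 1 to 4, and 5.22, 5.30, 5.13 and 5.49 on NEFA arrays 1 to 4. Every NEFA array lay above every BSA array, and the gap between the groups was wider than the spread in either. The change was 0.84 (SE 0.083; limma, adjusted p = 0.0026), the 95% interval was 0.65 to 1.03, and it passed in all 14 alternative settings other than the replicate block, with adjusted p up to 0.014. ADAMTS20 (probe set 12861279) read 4.39, 4.63, 4.33 and 4.29 with BSA and 4.96, 5.09, 4.96 and 5.24 with NEFA. The groups again did not overlap, with BSA 2 the highest of its group. ADAMTS20 rose by 0.65 (SE 0.095; limma, adjusted p = 0.014). Without NEFA 2 the call ended at an adjusted p of 0.052.

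ADAMTS5, the main aggrecan-cutting enzyme of cartilage in mice, moved the other way. ADAMTS5 (probe set 12678842) read 5.28, 5.22, 5.43 and 5.36 with BSA and 4.93, 4.42, 4.42 and 4.88 with NEFA. All NEFA arrays were below the BSA arrays, and within NEFA arrays 2 and 3 lay lower than arrays 1 and 4. It fell by 0.66 on the log2 scale (SE 0.13; limma, adjusted p = 0.044; 95% interval -0.96 to -0.36). This call was close to the threshold, and it ended when any array other than NEFA 1 was left out, with adjusted p from 0.052 without NEFA 4 to 0.12 without BSA 3.

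MMP2, a gelatinase that cuts denatured collagen and the collagen of basement membranes, was among the brightest proteases. MMP2 (probe set 12749561) read 8.77, 8.62, 8.54 and 8.35 with BSA and 9.0, 9.08, 9.11 and 9.15 with NEFA. The NEFA arrays lay close together, above a wider range of BSA arrays. The rise was 0.52 (SE 0.089; limma, adjusted p = 0.027; 95% interval 0.31 to 0.72). The call ended without BSA 2, BSA 3 or any 1 of the NEFA arrays, with adjusted p from 0.059 without NEFA 1 to 0.082 without BSA 3.

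**Figure D2:**
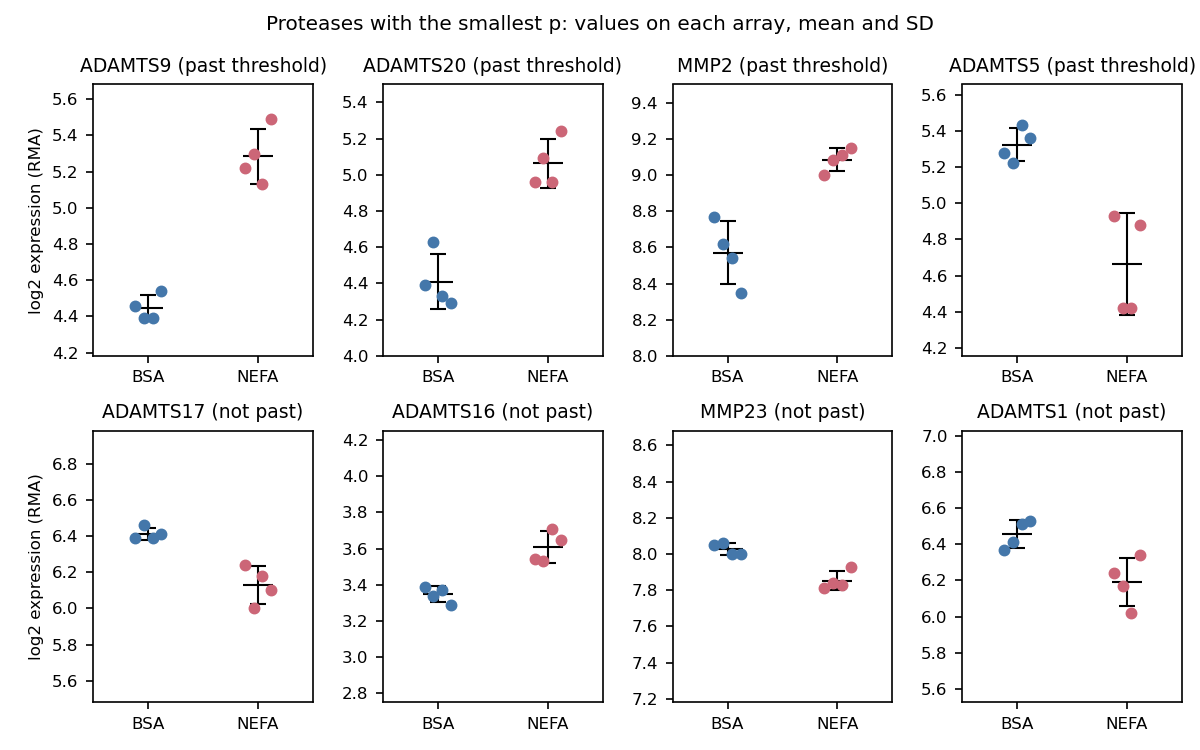
Log2 expression on each array (points), with the mean and SD of 4 arrays (bars), for the 4 called proteases and the 4 next by p; each panel spans the same range of log2 values. The groups do not overlap in any panel, but the gaps of ADAMTS17, ADAMTS16, MMP23 and ADAMTS1 are smaller and these did not pass.

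**Figure D3:**
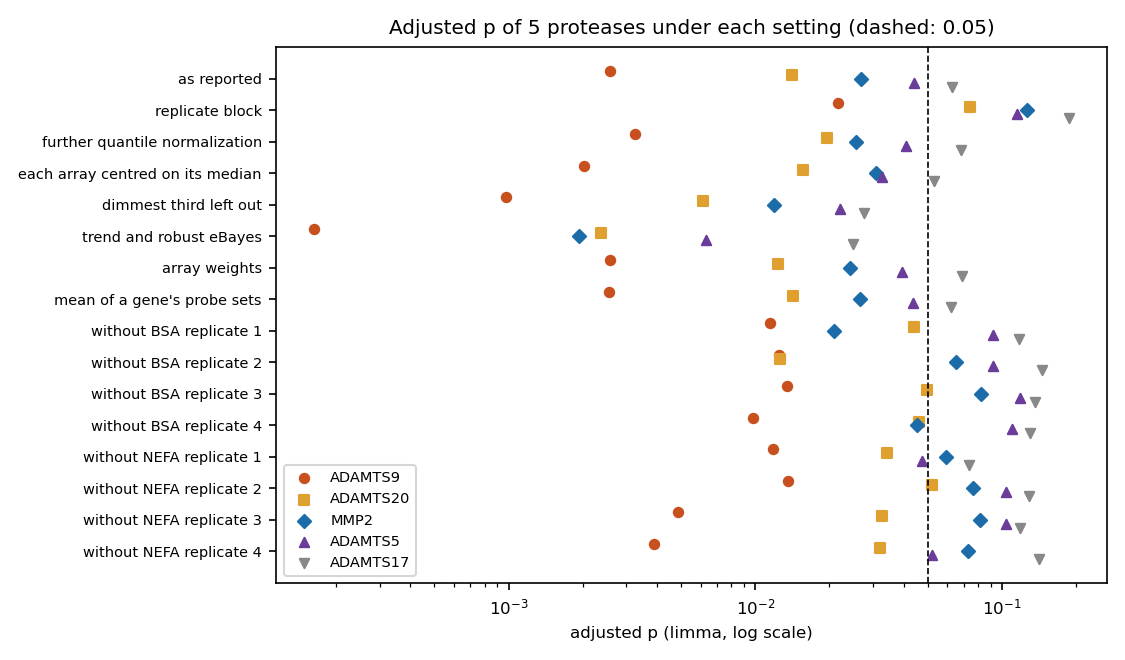
Adjusted p of limma (x axis, log scale) for ADAMTS9, ADAMTS20, MMP2, ADAMTS5 and ADAMTS17 under the reported fit and 15 other settings (y axis); the dashed line is 0.05. ADAMTS9 stays on the left of the line throughout, whereas ADAMTS5 and MMP2 cross it for most arrays left out.

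All 12 markers of the labelled cell type, granulosa, lay above the dimmest 33.3%, with a median level of 9.41. Their mean levels ran from 4.83 for HSD17B1 to 11.71 for SERPINE2, with FSHR at 7.57 and CYP19A1 at 7.77. This bar does not tell cell types apart, as all 9 stroma and 4 smooth muscle markers lay above it too. None of the granulosa markers passed in limma, and 4 of 12 (33.3%) did at an unadjusted p under 0.05. Of all genes 16.8% did, a share that stands beside each list below too. The 4 were HSD17B1 at -0.75, CYP11A1 at -0.12, CYP19A1 at 0.51 and GJA1 at 0.13 (limma, adjusted p from 0.12 to 0.28), named here after their values were seen. Markers of other cells were measured alongside. All marker lists were chosen with earlier results of these data known. The stroma list was bright too (9 measured, median level 8.61), with DCN called higher and COL3A1 and PDGFRA lower (33.3% called, beside 2.35% of all genes). At an unadjusted p under 0.05, 5 of 9 (55.6%) passed, 2 higher and 3 lower. Its summed level was 13.10 to 13.15 on BSA arrays and 13.16 to 13.28 on NEFA arrays. That sum follows the brightest genes, such as LUM at 12.18, whereas the median change of the list was -0.0075 and 5 of 9 changes were negative. The summed level of 4 smooth muscle markers was 7.68 to 7.78 with BSA and 7.90 to 8.39 with NEFA, and all 4 were higher, though none passed in limma (3 at an unadjusted p under 0.05). For 5 theca markers the sums were 8.28 to 8.51 and 8.50 to 8.74, with none past the threshold in limma and 4 higher at an unadjusted p under 0.05, at mean levels of 3.27 for CYP17A1, 2.72 for LHCGR, 3.97 for GLI1, 6.28 for PTCH1 and 7.98 for INSL3. The stroma, smooth muscle and theca sums lay higher with NEFA, the theca ranges just overlapping, as MMP2, ADAMTS9 and ADAMTS20 did. Any part of these cells in those rises was not tested. Such higher sums were not limited to these lists: the oocyte sum below also lay higher, with all 5 changes positive at dim levels, and the leukocyte sum did with overlap. Endothelial sums were 6.26 to 6.43 and 6.10 to 6.28 over 6 markers, of which VWF fell by 0.35 on the log2 scale. The 8 leukocyte markers gave 6.75 to 6.84 and 6.80 to 7.0, with PTPRC, which all leukocytes carry, at 2.88. The 5 surface epithelium markers gave 6.53 to 6.67 and 6.41 to 6.64, and the 5 oocyte markers 5.14 to 5.26 and 5.26 to 5.37; no marker of these last 3 lists passed in limma (2 leukocyte, 0 epithelial and 1 oocyte marker at an unadjusted p under 0.05).

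The remaining proteoglycan-cutting ADAMTSs did not pass. ADAMTS1, which cuts versican in the expanding cumulus and is induced before ovulation in mouse granulosa cells, read 6.37, 6.41, 6.51 and 6.53 with BSA and 6.24, 6.17, 6.02 and 6.34 with NEFA. The groups did not overlap, but BSA 1 (6.37) and NEFA 4 (6.34) nearly met. The change was -0.26 (SE 0.078; limma, adjusted p = 0.14). ADAMTS1 and ADAMTS5 are neighbours with no protein-coding gene between them in the RefSeq gene order (assembly ARS-UCD2.0). ADAMTS8 read 3.98, 3.67, 4.06 and 3.90 with BSA and 3.89, 4.04, 4.48 and 4.28 with NEFA, which overlapped. Its change was 0.27 (limma, adjusted p = 0.38). ADAMTS4 and ADAMTS15 changed by 0.24 and -0.16 and did not pass. Of all 7 proteoglycanases 2 rose, 1 fell and 4 did not pass (42.9% called, beside 2.35% of all genes), with changes from -0.66 to 0.84. Roles were assigned with earlier results known, and the called genes are those already counted for the ADAMTSs, so this share is no support.

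Of the procollagen-trimming ADAMTSs none of 3 passed, and 1 was lower at an unadjusted p under 0.05. ADAMTS3, which removes the amino-terminal propeptide of procollagen and activates VEGFC, had the highest signal of the ADAMTSs. It read 7.86, 8.03, 8.04 and 8.12 with BSA and 7.68, 7.90, 7.80 and 7.72 with NEFA. BSA 1 lay below NEFA 2, so the groups overlapped, with a change of -0.24 (limma, adjusted p = 0.16). ADAMTS2 and ADAMTS14, of the same function, changed by -0.10 and 0.13.

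Among the other 9 ADAMTSs, ADAMTS17 and ADAMTS16 came closest to the threshold. ADAMTS17, altered in a human syndrome of short stature and lens dislocation, read 6.39, 6.46, 6.39 and 6.41 with BSA and 6.24, 6.00, 6.18 and 6.10 with NEFA. The BSA arrays were nearly equal and all above the NEFA arrays. Its change was -0.28 (SE 0.062; limma, adjusted p = 0.063). ADAMTS16, given here because it was the next after ADAMTS17, was 3.35 ± 0.04 with BSA and 3.61 ± 0.09 with NEFA (SD, n = 4; limma, adjusted p = 0.070), a dim signal. ADAMTS6, which acts on fibrillin microfibrils, read 5.80, 6.00, 5.57 and 5.42 with BSA and 5.63, 5.65, 5.65 and 5.01 with NEFA. NEFA 4 lay far below the other NEFA arrays, and the change of -0.21 was -0.05 without it. ADAMTS7, ADAMTS10, ADAMTS12, ADAMTS13, ADAMTS18 and ADAMTS19 changed by -0.05, 0.01, -0.01, 0.05, 0.07 and 0.01. ADAMTS13, which cuts von Willebrand factor, varied by more than this within each group (SD 0.32 with BSA and 0.39 with NEFA, n = 4).

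None of the 6 membrane-type MMPs passed, and MMP14 and MMP16 were the brightest of them. MMP14, the membrane enzyme that activates pro-MMP2 together with TIMP2, had the highest signal of the 56 proteases and read 10.17, 10.18, 10.10 and 10.09 with BSA and 10.24, 10.24, 10.15 and 10.25 with NEFA. NEFA 3 lay within the BSA range and the others just above it, with a change of 0.09 (limma, adjusted p = 0.46; 95% interval -0.03 to 0.20). MMP16 read 8.49, 8.34, 8.40 and 8.35 with BSA and 8.35, 8.48, 8.33 and 8.46 with NEFA. These ranges coincided, and the change was 0.01 (95% interval -0.13 to 0.15). MMP15, MMP17, MMP24 and MMP25 changed by -0.04, -0.05, 0.15 and 0.23, at mean levels from 3.86 for MMP24 to 6.45 for MMP15.

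MMP23, a small membrane-anchored MMP known from the ovary among other tissues, was lower in all NEFA arrays but did not pass. It read 8.05, 8.06, 8.0 and 8.0 with BSA and 7.81, 7.84, 7.83 and 7.93 with NEFA, a change of -0.17 (SE 0.050; limma, adjusted p = 0.13). Its groups did not overlap, but the gap was 0.07 at its narrowest, between 8.0 and 7.93. MMP9, the other gelatinase, changed by 0.14 at a mean level of 4.75 (limma, adjusted p = 0.67), so of the gelatinases MMP2 alone was called. MMP19 and MMP11 changed by 0.10 and 0.01.

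The collagenase MMP1 had probe sets that disagreed in direction. The brighter one (12726701) read 5.72, 5.44, 5.50 and 5.50 with BSA and 6.08, 5.89, 5.58 and 5.95 with NEFA, a change of 0.33 (limma, adjusted p = 0.18). The dimmer one (12726411) changed by -0.29 at a mean level of 3.23 (limma, adjusted p = 0.27), and neither passed. No direction can be given for MMP1. MMP13, another collagenase, read 2.22, 1.68, 2.24 and 2.09 with BSA and 2.15, 2.00, 3.15 and 2.33 with NEFA. NEFA 3 was the highest, and the change of 0.35 was 0.10 without it.

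MMP1 and MMP13 belong to a run of MMP genes in the RefSeq gene order. MMP13, MMP12, MMP3 and MMP1 follow each other directly, then come 2 genes without a family symbol, then MMP8, MMP27, MMP20 and MMP7 without a gap. Within this run MMP1 (mean level 5.71) and MMP12 (4.49) had the highest signals, and MMP13, MMP3, MMP8, MMP27, MMP20 and MMP7 lay between 1.85 and 2.34. None of these genes passed. For comparison, the 5 oocyte genes looked at, which granulosa cells should not express, lay between 2.30 for ZP4 and 3.44 for ZP3.

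Of the ADAMs with protease activity none of 8 passed in limma, adjusted or at an unadjusted p under 0.05. The brightest of them, ADAM10, ADAM9 and ADAM17, were measured with little spread. ADAM10, the sheddase of Notch and cadherins, read 9.05, 9.04, 9.14 and 9.08 with BSA and 9.17, 9.11, 9.16 and 9.09 with NEFA. The ranges overlapped, and the change was 0.06 (SE 0.049; 95% interval -0.06 to 0.17). ADAM9 read 8.91, 8.96, 9.01 and 8.97 with BSA and 9.05, 9.05, 8.96 and 8.92 with NEFA, a change of 0.03. ADAM17, which releases tumour necrosis factor and the EGF-like ligands of the ovulatory cascade, read 7.96, 7.94, 7.97 and 7.95 with BSA and 8.04, 8.10, 8.02 and 8.01 with NEFA. All NEFA arrays of ADAM17 were above the BSA arrays, though by 0.09 on average (limma, adjusted p = 0.40; 95% interval -0.02 to 0.19). ADAM19, ADAM12, ADAM15, ADAM8 and ADAM33 changed by -0.07, -0.14, 0.08, -0.08 and 0.10.

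Of the ADAMs that lack protease activity and are known from the nervous system, ADAM22 had the lowest change of all 18 ADAMs. It read 2.10, 2.33, 2.00 and 2.22 with BSA and 2.08, 1.73, 1.97 and 2.09 with NEFA, with overlap and a change of -0.19 at a dim level (limma, adjusted p = 0.40). ADAM23 and ADAM11 changed by -0.03 and 0.25 and did not pass. The 7 ADAMs known from the male germ line had mean levels of 1.73 to 2.65, and all lay among the dimmest 33.3% of probe sets. ADAM32 and ADAM9 are direct neighbours in the RefSeq gene order, with ADAM2, ADAM3A and ADAM18 beyond ADAM32. ADAM9 had a mean level of 8.98 and the other 4 of 1.73 to 2.04.

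None of the 5 inhibitors passed, and TIMP1 and TIMP2 had the highest signals of the 61 genes. TIMP1, a soluble inhibitor that granulosa cells are known to secrete, read 12.17, 12.24, 12.28 and 12.17 with BSA and 12.23, 12.19, 12.22 and 12.21 with NEFA. Its NEFA arrays lay inside the range of the BSA arrays, and the change was 0.00 (SE 0.049), with a 95% interval of -0.11 to 0.11. TIMP2, which blocks MMP2 but also helps MMP14 to activate it, read 11.67, 11.70, 11.62 and 11.66 with BSA and 11.63, 11.71, 11.62 and 11.70 with NEFA. The ranges coincided, with a change of 0.00 and a 95% interval of -0.11 to 0.11. The second probe set of TIMP2 (12766730, mean level 8.17) differed from this and was lower with NEFA. It read 8.33, 8.41, 8.21 and 8.17 with BSA and 8.03, 8.17, 8.0 and 8.03 with NEFA, a change of -0.22 (limma, unadjusted p = 0.012, adjusted p = 0.17). NEFA 2 met BSA 4 at 8.17, so these groups touched, and this probe set did not pass either.

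TIMP3, which binds to the matrix and is the TIMP that blocks ADAM17 and several ADAMTSs, read 8.32, 8.22, 8.27 and 8.17 with BSA and 8.33, 8.38, 8.19 and 8.49 with NEFA. The change was 0.10 (limma, adjusted p = 0.54; 95% interval -0.06 to 0.27). RECK, the membrane-anchored inhibitor of MMP2, MMP9 and MMP14, read 7.05, 7.15, 7.11 and 7.09 with BSA and 7.08, 7.19, 7.24 and 7.05 with NEFA. Both groups of RECK overlapped, with a change of 0.04. TIMP4 was the dimmest inhibitor, and of the probe sets that stood for the 5 inhibitors the only one lower at an unadjusted p under 0.05. It read 3.88, 3.85, 3.98 and 4.02 with BSA and 3.77, 3.88, 3.74 and 3.69 with NEFA, a change of -0.16 (limma, adjusted p = 0.26). NEFA 2 reached the BSA range and the other NEFA arrays lay below it.

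**Figure D4:**
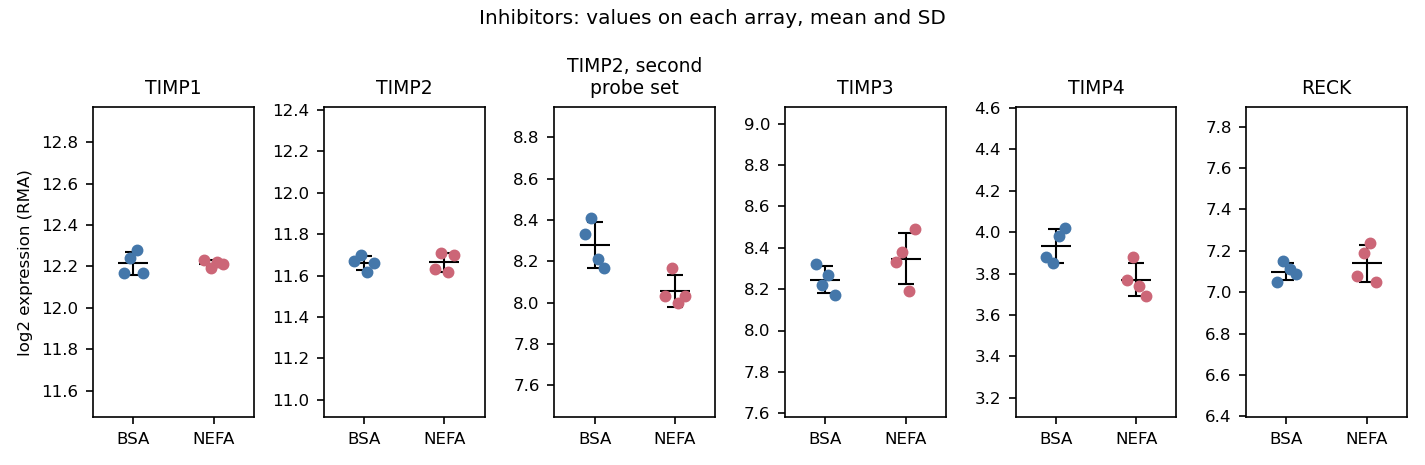
Log2 expression of the 4 TIMPs, the second TIMP2 probe set and RECK on each array (points), with the mean and SD of 4 arrays (bars); each panel spans the same range of log2 values. TIMP1 and the brighter TIMP2 probe set sit at one height in both groups, and the second TIMP2 probe set sits lower with NEFA by 0.22.

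The question whether a protease and an inhibitor changed unequally was put to 7 pairs, as the difference of their log2 values on each array. MMP2 minus TIMP2 was higher with NEFA by 0.51, MMP2 minus TIMP1 by 0.52 and MMP2 minus RECK by 0.48. These 3 differences share MMP2, whose rise was known when the pairs were chosen, and restate that rise beside changes of 0.00, 0.00 and 0.04 in the inhibitors, so they are given as a description with no test. MMP14 minus TIMP2 was higher by 0.08 and ADAMTS1 minus TIMP3 changed by -0.37, each without overlap. For each p was 0.0286, the smallest possible (two-sided exact permutation test over the 70 splits, n = 4 per group). Adjusted over the 7 pairs it was 0.04, but this counts the 3 MMP2 pairs at the same p and is no support. Both pairs were also chosen with earlier results known. They restate changes of 0.09 in MMP14 and -0.26 in ADAMTS1 beside 0.00 in TIMP2 and 0.10 in TIMP3, so their p-values are no independent support. In every pair TIMP2 was represented by its brighter probe set. The second TIMP2 probe set changed by -0.22, and no pair difference was taken with it. ADAM10 minus TIMP1 changed by 0.06 (exact permutation p = 0.0857, adjusted p = 0.1) and ADAM17 minus TIMP3 by -0.01 (exact permutation p = 0.943), both with overlap.

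Compared by family, the median change was 0.08 for the MMPs, 0.04 for the ADAMs, 0.01 for the ADAMTSs and 0.00 for the TIMPs with RECK, beside 0.005 for all genes. With each array centred on its median the last 2 families lay below 0 (-0.025 and -0.033). Centring shifts the change of every gene by the same amount, so the median of all genes falls with them and the order is kept. The ADAMTSs had changes in both directions, and the median size of a change regardless of sign was 0.21 for the ADAMTSs, against 0.08 for the MMPs, 0.07 for the ADAMs, 0.04 for the inhibitors and 0.09 for all genes. Groups did not overlap for 6 of 19 ADAMTSs, 2 of 19 MMPs, 1 of 18 ADAMs and 0 of 5 inhibitors, beside 12.4% of all genes. The ADAMTSs were not the brightest family, with a median level of 4.46 against 8.30 for the inhibitors, 4.49 for the MMPs and 3.69 for the ADAMs. No test between families was made.

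**Figure D5:**
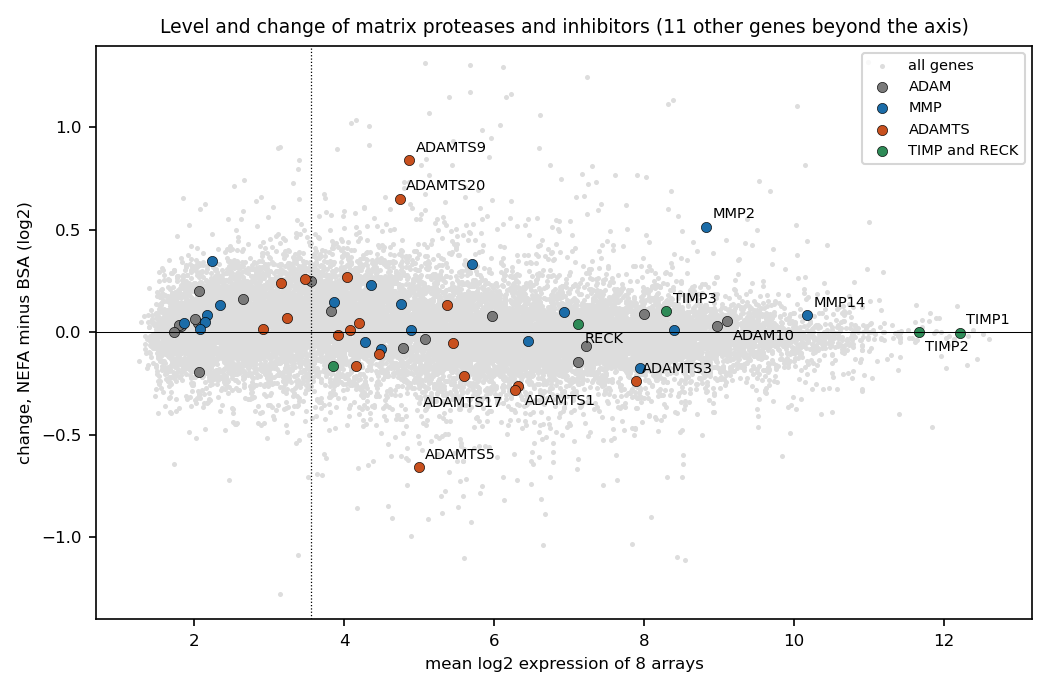
Mean log2 expression of 8 arrays (x axis) against the change, NEFA minus BSA (log2, y axis), for all named genes (grey) and the 61 genes by family; the dotted line marks the dimmest 33.3% of probe sets, and 11 other genes lie beyond the axis. ADAMTS9, ADAMTS20 and ADAMTS5 stand off at mean levels near 5 and MMP2 at 8.83, while TIMP1 and the brighter probe set of TIMP2 lie at 0 at the bright end.

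Of the 61 genes, 11 were among the brightest 20% of all genes, and MMP2 alone of these passed, where 2.35% of all genes at any level did. For 9 of the other 10 the 95% interval lay within 0.3 on either side of 0, the exception being ADAMTS3. Over all 57 genes that did not pass, the interval lay within 0.5 on either side for 49 and reached further for 8, so for those a change of that size lay within the interval. At the dim end, 18 of the 61 lay in the dimmest 33.3% of probe sets, and none of these passed. Of all genes 2.35% were called, and of those outside the dimmest 33.3% 3.11% were. Dim genes of any kind were thus called less often, and the absence of calls says nothing particular about these 18. The 38 genes not given by array changed by -0.16 (ADAMTS15) to 0.26 (ADAMTS16).

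Genes that act with these proteases were looked at as lists. The lists were chosen with earlier results of these data known, so their shares beside all genes are a description and no support. Of 12 measured partners of ADAM10 and ADAM17 (rhomboid-like proteins, tetraspanins and the convertases that cut propeptides) none passed in limma, and the median change was -0.05. At an unadjusted p under 0.05, 4 of the 12 (33.3%) were lower and none higher, beside 16.8% of all genes in either direction. The smallest p was that of TSPAN17, a tetraspanin partner of ADAM10, at -0.16 (limma, adjusted p = 0.12). Of 20 shed ligands and receptors 1 fell, none rose and 19 did not pass, with a median of -0.01. At an unadjusted p under 0.05, 8 of the 20 (40.0%) passed, 5 higher and 3 lower, beside 16.8% of all genes, and the groups did not overlap for 9 (45.0%), beside 12.4% of all genes. Among these CD44, EGFR and SDC1 changed by 0.54, 0.30 and 0.38 and ERBB4 and KITLG by -0.36 and -0.27, with limma's adjusted p from 0.0996 to 0.16; these 5 were named after their values were seen. The called one was HBEGF, an EGF receptor ligand that ADAM17 releases in mice, which went from 5.37 ± 0.11 to 5.03 ± 0.05 (SD, n = 4; limma, adjusted p = 0.043). The call of HBEGF ended when any array other than BSA 4 was left out (limma, adjusted p up to 0.12 without NEFA 2).

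Of 16 measured genes of activation, inhibition and clearance outside the families, 2 rose (12.5%, beside 2.35% of all genes called) and 14 did not pass, and the median change was 0.08. PCOLCE2, which enhances the removal of the procollagen carboxy-propeptide, went from 6.58 ± 0.04 to 6.97 ± 0.08 (limma, adjusted p = 0.013). It passed in all 14 alternatives other than the replicate block, and with the block its call ended (limma, adjusted p = 0.072). SPOCK2, a testican proteoglycan, went from 6.56 ± 0.11 to 6.95 ± 0.06 (limma, adjusted p = 0.028), and lost its call with array centring and without any 1 array other than BSA 2 and NEFA 4 (adjusted p up to 0.087 without NEFA 3). Of 12 astacin proteases and ADAM or ADAMTS relatives 1 rose (8.33%) and 11 did not pass, with a median of -0.03. The called one was ADAMDEC1, a soluble ADAM-like protease known from macrophages, which rose by 0.50 (5.79 ± 0.13 to 6.29 ± 0.10; limma, adjusted p = 0.020). Its call ended without BSA 4, NEFA 1, NEFA 2 or NEFA 4 (limma, adjusted p up to 0.068). Of 22 matrix substrates 3 rose (DCN, FN1 and LAMB1), 1 fell (COL3A1) and 18 did not pass (18.2% called, beside 2.35% of all genes), with a median of 0.08. At an unadjusted p under 0.05, 9 of the 22 (40.9%) passed, 8 higher and 1 lower, beside 16.8% of all genes. The groups did not overlap for 8 (36.4%), beside 12.4% of all genes. VCAN, the versican that ADAMTS1, ADAMTS5, ADAMTS9 and ADAMTS20 cut, was 10.95 ± 0.05 with BSA and 10.97 ± 0.01 with NEFA and did not pass (95% interval of the change -0.09 to 0.13); it was named after its value was seen.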

How the data were processed

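Per the submitters' processing notes, the authors used RMA, and the deposited values are its log2 expression values of 1-colour arrays. As RMA equalises the array distributions after background correction, a shift of all transcripts cannot be seen, and folds of dim probe sets are understated. Software, version and build were not given in the sources used here. Arrays give no read depth, and their number limits the precision. The table held 24415 probe sets: 18457 with 1 gene symbol, 688 with several and 5270 with none. Symbols came from the supplied platform annotation and were updated by gene ID (RefSeq, ARS-UCD2.0; 17996 matched, and 60 of the 61 genes were placed in the gene order).

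The comparison of NEFA with BSA used limma 3.58.1 (lmFit, eBayes) in R 4.3.3 on all probe sets, with Benjamini-Hochberg adjustment; the fit was tested on simulated data. Members, lists, roles, pairs and tests were chosen with earlier results of these data known. Values by array were given for called genes, inhibitors, the 3 brightest of each protease family, pair members and the 3 highest and 3 lowest other changes; of each list, called members or the smallest p were named. Alternatives were a replicate block, quantile normalization, array centring, leaving out the dimmest 33.3%, trend and robust eBayes, weighted arrays, averaging a gene's probe sets, and leaving out each array. Same-numbered arrays did not deviate together (correlations -0.01 to 0.07 over probe sets), so numbers were not taken as pairs.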

Additional observations from a re-analysis of the deposited data

Results flagged for a closer look

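Within groups of 4, a single array stood far from the others by Dixon's criterion for 8 of 122 gene and group combinations (6.56%), where chance gives about 1 in 20. NEFA 4 was apart for ADAMTS6 (5.01, others 5.63 to 5.65) and for ADAM29 (2.55, others 1.81 to 1.91). NEFA 3 was apart for MMP14 (10.15, others 10.24 to 10.25), MMP19 (6.86, others 7.01 to 7.02) and ADAMTS2 (4.08, others 4.49 to 4.57). Among the BSA arrays, BSA 1 was low for MMP12 (3.93, others 4.69 to 4.80), BSA 3 was low for MMP3 (1.93, others 2.17 to 2.21), and BSA 2 read 1.78 for ADAM18 where the others were all 1.77, a gap of 1 unit in the last decimal. None of the 4 called proteases was among these.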

How the results depend on the processing

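The proteases called higher were 3 under every setting that kept all arrays other than the replicate block, and 1 to 3 when an array was left out; the only one called in all of these was ADAMTS9. ADAMTS5 was called lower with all arrays in every setting but the block; the count of lower calls was 2 with the dimmest 33.3% left out (ADAMTS17 joining), 4 with trend and robust eBayes (ADAMTS17, ADAMTS3 and MMP23 joining), and 0 to 1 with an array left out. The replicate block left 1 higher call (ADAMTS9, limma adjusted p = 0.022) and 0 lower (limma; ADAMTS5 at adjusted p = 0.11). Over all genes the counts of 180 higher and 243 lower became 45 and 32 with the block, 315 and 475 without the dimmest probe sets, 418 and 679 with trend and robust eBayes, and 72 to 128 and 82 to 132 with an array left out; array centring gave 127 and 302. Centring lowered the change of every gene by the same amount, and so all 4 family medians. The MMP median went from 0.0825 to 0.0475, the ADAM median from 0.0425 to 0.0075, the ADAMTS median from 0.01 to -0.025 and that of the inhibitors from 0.0025 to -0.033. Averaging a gene's probe sets gave an MMP median of 0.05 and an inhibitor median of -0.0025. The ADAMTS median became -0.049 with quantile normalization and -0.053 without the dimmest probe sets. With an array left out the medians ran from 0.023 to 0.060 (ADAM), -0.043 to 0.045 (ADAMTS; below 0 without BSA 2, BSA 3, NEFA 2 or NEFA 4), 0.048 to 0.11 (MMP) and -0.0017 to 0.019 (inhibitors). With an array left out, the pair differences ran from 0.44 to 0.58 (MMP2 minus TIMP2), 0.46 to 0.60 (MMP2 minus TIMP1), 0.41 to 0.56 (MMP2 minus RECK), 0.064 to 0.092 (MMP14 minus TIMP2) and -0.42 to -0.32 (ADAMTS1 minus TIMP3), and the groups of these 5 stayed apart throughout. With 3 arrays against 4 there are 35 splits, so groups that are fully apart reach an exact permutation p of 0.0286 or 0.0571 (adjusted 0.04 to 0.08) by the size of the test alone, and these p-values say nothing about stability. The calls of COL3A1, FN1, LAMB1 and PDGFRA ended without any 1 array (limma, adjusted p up to 0.11, 0.13, 0.074 and 0.11), those of DCN and VWF without 4 and 7 arrays (up to 0.067 and 0.11). FN1 also lost its call with array centring and array weights (adjusted p = 0.079 and 0.051). With the replicate block DCN kept its call (limma, adjusted p = 0.049). The block ended those of COL3A1, FN1, LAMB1, PDGFRA, VWF, PCOLCE2, SPOCK2, ADAMDEC1 and HBEGF (limma, adjusted p from 0.072 for PCOLCE2 to 0.16 for FN1). No called value changed sign.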
